A study of Mus musculus with 12 samples.

Results

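The tight junction genes of the blood-testis barrier were followed in RNA-seq data of a mouse germ line cell line and a mouse Sertoli cell line. All claudins in the table, with symbols made of Cldn and a number, and 17 further genes chosen by name were taken, which gave 34 of 17995 genes, 17 of them claudins. Other claudins were not analysed here. C18-4 cells, described as mouse spermatogonial stem cells, and TM4 cells, described as mouse Sertoli cells, received either shM5, a mixture of 3 shRNAs against the muscarinic acetylcholine receptor M5, or the control shNC. Each of the 4 groups, C18-4 shNC, C18-4 shM5, TM4 shNC and TM4 shM5, had 3 libraries, 12 in all. The labels gave the strain IRC for every library, and control cells also carried an shRNA. Each cell type was represented by 1 line, and nothing in the labels says whether the 3 libraries of a group came from separate cultures. The p-values below therefore measure the spread between these libraries, which may be technical.

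Tight junctions seal the space between neighbouring cells. Claudins, occludin and the junctional immunoglobulin proteins span the membrane, scaffold proteins such as ZO-1 tie them to actin, and polarity complexes help to place them. Between Sertoli cells these junctions form much of the blood-testis barrier, which closes off the compartment of meiotic germ cells, and claudin-11 (Cldn11) is a main claudin of that barrier.

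The deposited values were RPKM, read numbers scaled by gene length and library size, so levels below can be compared between genes. Read numbers were not given, so no counting error can be attached to a value. Chrm5, which encodes M5, was listed at 0 RPKM in 10 libraries and at 0.01 RPKM in 2, so it could not check the treatment labels. The labelled cell types were only partly borne out by their markers. In TM4 cells the Sertoli cell gene Sox9 lay between 1.11 and 1.74 RPKM, Wt1 at most at 0.15 RPKM, and Nr5a1 was listed at 0. In C18-4 cells the spermatogonial genes Zbtb16, Ddx4 and Dazl reached at most 0.02, 0.05 and 0.04 RPKM and Kit was listed at 0, while Uchl1 lay between 76.8 and 140 RPKM and the Sertoli cell gene Wt1 between 53.9 and 72.3 RPKM. Of 9 epithelial markers in the table, 5 averaged 0.5 RPKM or more in C18-4 cells, led by Krt19 (190 to 379 RPKM) and Krt18 (68.3 to 101 RPKM), and none did in TM4 cells, while the epithelial cadherin Cdh1 reached at most 0.07 RPKM in either line. Fibroblast or myoid markers were high in both lines. Of 12, 11 averaged 0.5 RPKM or more in C18-4 cells and 12 in TM4 cells. Vim led them, with 577 to 769 RPKM in C18-4 cells and 620 to 1125 RPKM in TM4 cells.

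Few claudins were expressed. Of the 17 claudins, 3 (Cldn3, Cldn10 and Cldn24) were listed at 0 in all 12 libraries, and 5 more (Cldn2, Cldn4, Cldn6, Cldn7 and Cldn18) never reached 0.1 RPKM. Another 7 (Cldn1, Cldn9, Cldn11, Cldn19, Cldn20, Cldn22 and Cldn23) reached 0.1 RPKM but had means below 0.5 RPKM in both lines. Only Cldn12 and Cldn15 averaged 0.5 RPKM or more in C18-4 cells, and only Cldn12 did in TM4 cells. Cldn12, a claudin that lacks the usual PDZ-binding tail, made up 74.4% to 80.4% of the summed claudin RPKM in the C18-4 libraries and 97.5% to 99.3% in the TM4 libraries. These sums lay between 34.5 and 41.2 RPKM in C18-4 cells and between 31.0 and 52.2 RPKM in TM4 cells.

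The MARVEL proteins, membrane proteins that line and seal contacts between cells, were also low. Marveld2, tricellulin, was listed at 0.03 RPKM in C18-4 shNC replicate 1 and at 0 elsewhere. Marveld3 reached 0.26 RPKM, and Ocln, which encodes occludin, reached 0.46 RPKM. In all, 9 of the 34 genes were at 0 or never reached 0.1 RPKM, and 9 more had means below 0.5 RPKM in both lines. The other 16 reached that mean in C18-4 cells and 13 of them in TM4 cells, all 13 being among the 16. Those missing in TM4 cells were Cldn15, Jam2 and Tjp3.

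**Figure D1:**
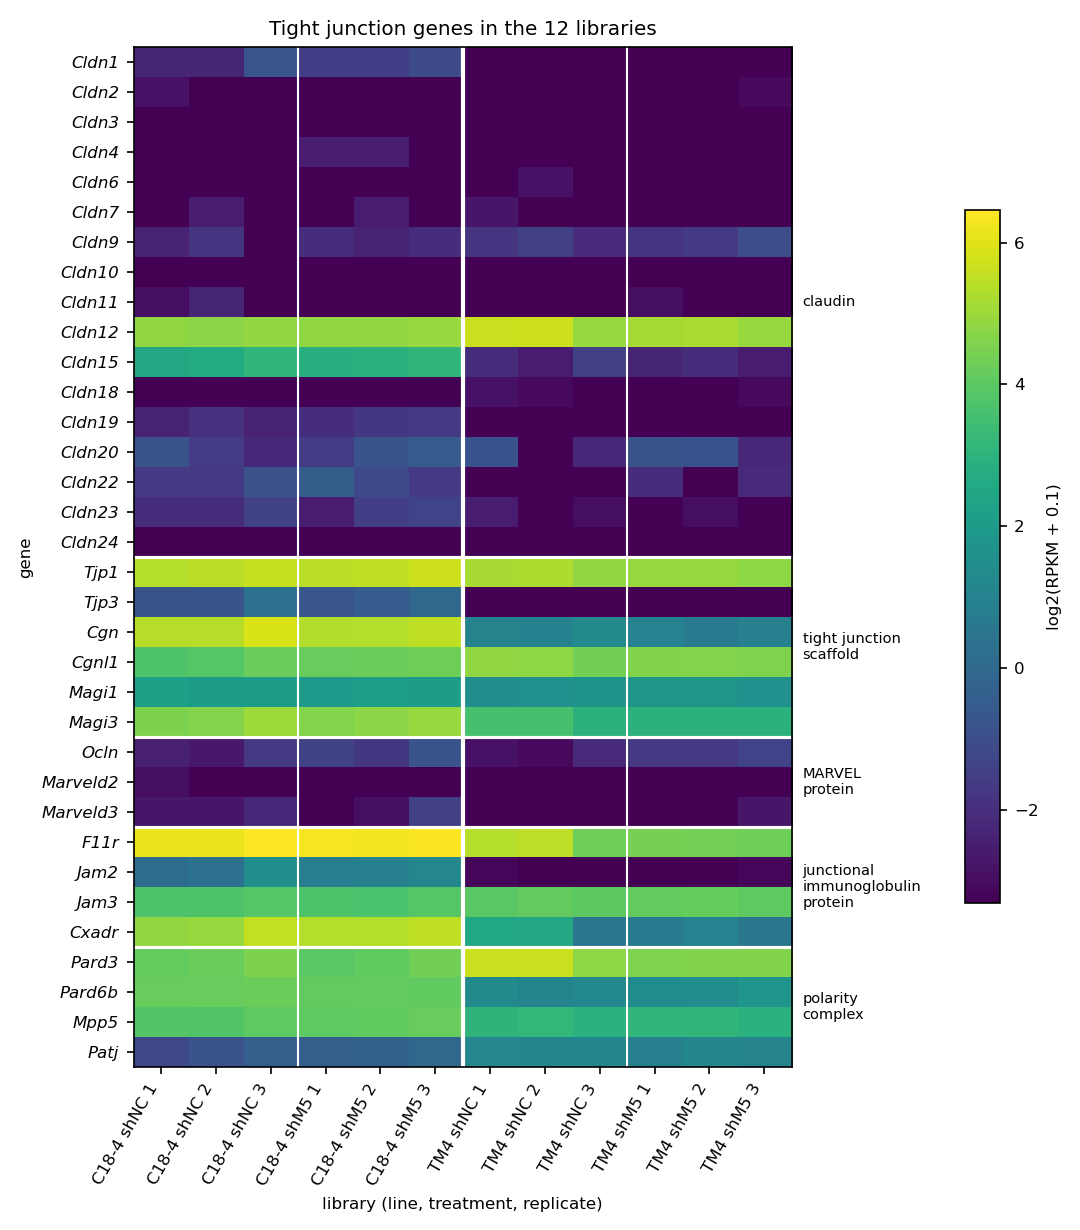
Heat map of the 34 tight junction genes (vertical axis, grouped by role) in the 12 libraries (horizontal axis), coloured by log2(RPKM + 0.1). Among the claudins, only Cldn12 is bright in both lines and Cldn15 in C18-4 cells alone, while Cgn, Cxadr and Pard6b are bright in C18-4 cells and darker in TM4 cells.

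Scaffold, immunoglobulin and polarity genes carried most of the signal. In C18-4 cells the highest mean over the 6 libraries was that of F11r (78.9 RPKM), followed by Tjp1 (45.8 RPKM), Cgn (45.1 RPKM), Cxadr (39.0 RPKM) and Cldn12 (28.7 RPKM). F11r lay above all others without overlap, while the ranges of each following pair of neighbours overlapped. Within every C18-4 library, however, Tjp1 lay above Cxadr and Cxadr above Cldn12. The place of Cgn against Tjp1 and Cxadr changed between libraries, so only that part of the order is not resolved. In TM4 cells Cldn12 was highest (39.2 RPKM), followed by Pard3 (33.5 RPKM), Tjp1 (31.8 RPKM), F11r (28.0 RPKM) and Cgnl1 (24.8 RPKM). Each pair of neighbours in this order overlapped. A mean of at least 10 RPKM was reached by 11 of the 34 genes in C18-4 cells and by 6 in TM4 cells.

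The genes of 4 proteins that were also stained in the study were read in every library. F11r encodes JAM-A, an adhesion protein that binds its own kind on the neighbouring cell. In the annotation used here (GENCODE M21, GRCm38 build) it lies on chromosome 1 from 171437535 to 171464603. It was at 72.0, 72.3 and 87.6 RPKM in C18-4 shNC and at 80.0, 78.4 and 83.2 RPKM in C18-4 shM5. These groups overlapped. In TM4 shNC it was at 41.7, 44.1 and 19.5 RPKM, and in TM4 shM5 at 22.0, 21.3 and 19.7 RPKM. Control replicate 3 thus lay below all shM5 libraries of TM4 cells, and the other control libraries lay above them.

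Tjp1 encodes ZO-1, the scaffold that links membrane proteins to actin, and lies on chromosome 7 from 65296165 to 65527781. It was at 41.0, 42.9 and 48.7 RPKM in C18-4 shNC and at 43.3, 46.3 and 52.6 RPKM in C18-4 shM5. In TM4 shNC it was at 36.4, 37.8 and 28.9 RPKM, and in TM4 shM5 at 29.6, 30.0 and 27.9 RPKM. The groups overlapped in both lines.

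Ocln, on chromosome 13 from 100496507 to 100552718, was low but detected in all 12 libraries. It was at 0.08, 0.06 and 0.22 RPKM in C18-4 shNC and at 0.27, 0.20 and 0.46 RPKM in C18-4 shM5. In TM4 shNC it was at 0.04, 0.02 and 0.13 RPKM, and in TM4 shM5 at 0.21, 0.21 and 0.29 RPKM. All shM5 libraries of TM4 cells lay above all their controls, and the groups overlapped in C18-4 cells. Ocln fell below the filter of 0.5 RPKM. Fitted with limma without that filter, shM5 minus shNC was 0.92 ± 0.34 (SE) on the log2 scale in C18-4 cells (adjusted p = 0.405) and 1.09 ± 0.27 in TM4 cells (adjusted p = 0.249), so neither difference passed the test.

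Cldn11, on chromosome 3 from 31149920 to 31164324, was close to 0 in both lines. C18-4 shNC had 0.03, 0.10 and 0 RPKM, and TM4 shM5 had 0.03, 0 and 0 RPKM. It was listed at 0 in 9 of the 12 libraries, all C18-4 shM5 and TM4 shNC libraries among them. No change of Cldn11 was detectable at these levels, and without the filter its adjusted p in limma was 0.589 in C18-4 cells and 0.565 in TM4 cells.

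The 250 bases before the RefSeq gene start are shown for the barrier claudin Cldn11, for Ocln, and for F11r, Pard3 and Magi3, whose levels moved together across the TM4 libraries as described below. They were taken from RefSeq on the GRCm38.p6 build, are written 5′ to 3′ on the strand of the gene, and use the most upstream start where RefSeq gives several. The build used by the authors was not given in the sources used here, and these sequences serve only to show the promoters. Capitals mark the E2-box letters CACCTG, searched on both strands (CAGGTG on the other), a motif known to be bound by Snail and Zeb factors at genes of epithelial junctions.
Cldn11, chr3:31149670-31149919, plus strand: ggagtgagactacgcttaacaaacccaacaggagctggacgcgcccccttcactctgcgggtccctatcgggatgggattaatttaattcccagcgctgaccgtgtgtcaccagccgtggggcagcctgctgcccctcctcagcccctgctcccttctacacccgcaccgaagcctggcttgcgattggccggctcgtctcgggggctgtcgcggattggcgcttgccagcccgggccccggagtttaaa
Ocln, chr13:100552719-100552968, minus strand: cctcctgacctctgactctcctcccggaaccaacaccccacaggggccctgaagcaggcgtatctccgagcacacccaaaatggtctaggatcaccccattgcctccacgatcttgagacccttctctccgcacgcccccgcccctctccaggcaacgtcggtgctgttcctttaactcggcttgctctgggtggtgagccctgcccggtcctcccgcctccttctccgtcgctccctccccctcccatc
F11r, chr1:171437311-171437560, plus strand: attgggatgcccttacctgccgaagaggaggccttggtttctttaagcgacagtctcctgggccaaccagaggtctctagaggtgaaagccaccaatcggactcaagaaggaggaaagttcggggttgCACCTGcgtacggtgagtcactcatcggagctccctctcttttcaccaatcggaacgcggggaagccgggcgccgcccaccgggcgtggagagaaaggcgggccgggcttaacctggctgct
Pard3, chr8:127063806-127064055, plus strand: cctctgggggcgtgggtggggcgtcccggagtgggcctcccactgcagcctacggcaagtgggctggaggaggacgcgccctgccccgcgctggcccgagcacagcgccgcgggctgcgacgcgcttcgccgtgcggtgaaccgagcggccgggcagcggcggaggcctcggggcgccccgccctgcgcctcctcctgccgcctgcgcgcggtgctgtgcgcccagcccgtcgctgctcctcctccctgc
Magi3, chr3:104220407-104220656, minus strand: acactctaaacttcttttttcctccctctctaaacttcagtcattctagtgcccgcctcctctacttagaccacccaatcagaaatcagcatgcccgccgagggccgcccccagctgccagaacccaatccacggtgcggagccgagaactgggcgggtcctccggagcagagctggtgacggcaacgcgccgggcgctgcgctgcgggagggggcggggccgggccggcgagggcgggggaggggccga

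Among these 5 windows that of F11r held the motif, 122 bases before the RefSeq gene start. For F11r, Pard3 and Magi3 that start differs from the GENCODE one, and the windows of F11r and Pard3 run past the GENCODE start. Ocln and Pard3 have a further RefSeq window each, not shown, and held it there. RefSeq windows were matched for 27 of the 34 genes, and 10 of the 27 (37.0%) held it in at least 1 window, against 19.4% of all 27025 genes with such a window. A gene with more windows is more likely to hold it in 1 of them, and these shares were not matched for the number of windows. By level, 6 of the 12 matched genes that averaged 0.5 RPKM or more in either line held it, and 4 of the 15 matched genes below that mean. The median GC content of the windows was 62.0% in the former, 54.2% in the latter and 52.4% over all genes. A match of letters describes the window and no binding was measured.

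The lines differed in most of these genes. Each line was compared with the other on the log2(RPKM + 0.1) scale with limma over 11773 genes, with an adjusted p below 0.05 as the call. Fold changes of low genes are understated on that scale. Tjp3 did not reach the mean needed for this fit: this tight junction scaffold lay between 0.48 and 1.14 RPKM in C18-4 cells and was listed at 0 in all TM4 libraries. Of the 15 genes fitted, 15 were called in the shNC libraries, against 65.6% of all genes tested. Of them, 5 were higher in TM4 cells, against 25.6% of all genes, and 10 were lower, against 40.0%. In the shM5 libraries 13 of 15 were called, against 61.1%, with 3 higher (24.2% of all genes) and 10 lower (37.0%). The median difference of the 15 genes was -0.86 in the shNC and -1.05 in the shM5 libraries, against -0.15 and -0.12 for all genes. Cldn15 and Jam2 passed the filter only through their C18-4 values, so these counts are not read as support for a lower level of the whole group.

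At the stricter threshold of the study (adjusted p no higher than 0.001, log2 difference of 1 or more in either direction), 9 of 15 were called in the shNC libraries, against 26.1% of all genes. Of these, 2 were higher in TM4 cells (9.05% of all genes) and 7 lower (17.1%). In the shM5 libraries 9 of 15 passed, against 24.0%, with 1 higher (9.1%) and 8 lower (14.9%). Under quantile normalisation the median of all genes moved to 0.02 in both contrasts, and the share of calls that were higher in TM4 cells rose from 39.0% to 50.9% over all genes in the shNC libraries and from 39.5% to 50.8% in the shM5 libraries. Over the members it stood at 5 of 14 and 4 of 13 calls. The 8 genes named next as lower in TM4 cells and the 3 named as higher were called in the same direction under that scaling.

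Among the scaffold genes, Cgn encodes cingulin, which binds ZO-1 and actomyosin. It lay between 40.4 and 59.8 RPKM in C18-4 cells and was at 1.99, 1.86 and 2.30 RPKM in TM4 shNC and at 1.92, 1.55 and 1.81 RPKM in TM4 shM5. TM4 minus C18-4 was -4.47 ± 0.15 (SE) in the shNC libraries (limma adjusted p = 1.68e-10) and -4.51 ± 0.15 in the shM5 libraries. Its relative Cgnl1, paracingulin, went the other way, with 13.3, 14.7 and 18.8 RPKM in C18-4 shNC, 18, 19.1 and 19.5 RPKM in C18-4 shM5 and 20.6 to 28.0 RPKM in TM4 cells. The ranges of Cgnl1 did not overlap, and the difference was 0.70 ± 0.14 in the shNC and 0.36 ± 0.14 in the shM5 libraries (limma adjusted p = 9.48e-04 and 0.0452). The scaffold Magi3 was at 22.9, 24.8 and 32.6 RPKM in C18-4 shNC, at 25.1, 26.6 and 30.7 RPKM in C18-4 shM5 and between 7.59 and 12.3 RPKM in TM4 cells. Its difference was -1.33 ± 0.18 in the shNC and -1.83 ± 0.18 in the shM5 libraries. Tjp1 was lower in TM4 cells by -0.37 ± 0.11 and -0.69 ± 0.11.

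Among the immunoglobulin proteins, Cxadr encodes the coxsackievirus and adenovirus receptor, a cell adhesion protein of epithelial junctions. It lay between 28.9 and 46.4 RPKM in C18-4 and between 1.34 and 5.94 RPKM in TM4 cells. Its difference was -3.23 ± 0.44 in the shNC and -4.68 ± 0.44 in the shM5 libraries. Jam2 encodes JAM-B, which pairs with JAM-C, the product of Jam3. Jam2 was at 1.01, 1.14 and 2.72 RPKM in C18-4 shNC and at 1.72, 1.82 and 2.19 RPKM in C18-4 shM5, and was listed at 0.01 RPKM in TM4 shNC replicate 1 and TM4 shM5 replicate 3 and at 0 in the other 4 TM4 libraries. Jam3 was at 13.1, 13.1 and 14.6 RPKM in C18-4 shNC and at 13.4, 12.7 and 14.6 RPKM in C18-4 shM5. In TM4 cells Jam3 was at 15.6, 16.9 and 15.6 RPKM in shNC and at 17.0, 17.6 and 16.2 RPKM in shM5, above every C18-4 library. The partners thus differed in opposite directions, Jam2 by -3.93 ± 0.30 and -4.28 ± 0.30, a size that depends on the value added before the logarithm, and Jam3 by 0.23 ± 0.09 and 0.32 ± 0.09. F11r was lower in TM4 cells by -1.22 ± 0.24 in the shNC and -1.94 ± 0.24 in the shM5 libraries. It still made up 52.1% to 66.3% of the summed RPKM of these 4 genes in TM4 libraries and 57.0% to 62.6% in C18-4 libraries.

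Among the polarity genes, Pard6b encodes a PAR6 protein that joins PAR3 and atypical protein kinase C. It lay between 16.9 and 18.9 RPKM in C18-4 and between 2.04 and 3.35 RPKM in TM4 cells, a difference of -2.99 ± 0.11 in the shNC and -2.54 ± 0.11 in the shM5 libraries. Mpp5, which encodes PALS1, was at 14.2, 14.0 and 16.4 RPKM in C18-4 shNC and at 16.2, 16.5 and 18.1 RPKM in C18-4 shM5. In TM4 cells Mpp5 was at 8.18, 8.78 and 7.52 RPKM in shNC and at 8.59, 8.31 and 7.43 RPKM in shM5. All TM4 libraries thus lay below all C18-4 libraries, by -0.86 ± 0.10 in the shNC and -1.05 ± 0.10 in the shM5 libraries. Patj, whose product binds PALS1, was higher by 1.98 ± 0.19 and 1.30 ± 0.19, from 0.34 to 0.86 RPKM in C18-4 cells to 2.23, 2.12 and 2.16 RPKM in TM4 shNC and 1.81, 2.16 and 1.98 RPKM in TM4 shM5. The claudin Cldn15 was at 5.83, 6.30 and 8.60 RPKM in C18-4 shNC and at 7.16, 7.48 and 8.41 RPKM in C18-4 shM5. In TM4 cells Cldn15 was at 0.14, 0.07 and 0.26 RPKM in shNC and at 0.10, 0.14 and 0.07 RPKM in shM5, a difference of -4.82 ± 0.26 and -5.27 ± 0.26. Of the genes not named by the rule, Pard3 and Cldn12 were called higher in TM4 cells in the shNC libraries alone (1.07 ± 0.21 and 0.61 ± 0.17). Their shM5 differences of 0.46 ± 0.21 and 0.23 ± 0.17 missed the call (limma adjusted p = 0.0790 and 0.268). Both were called when TM4 control replicate 3 was left out of the fit (limma adjusted p = 0.00346 and 0.0197). That library does not enter the shM5 difference, so leaving it out kept the estimates and changed the shared spread. These calls are not read as support. Pard3 was also called in the shM5 libraries under quantile normalisation (0.53, limma adjusted p = 0.0319). Magi1 was called lower in both contrasts (-0.52 ± 0.12 and -0.31 ± 0.12), and under quantile normalisation in neither (-0.08 and 0.03). Its call in the shM5 libraries was also lost without control replicate 2 of either line or without any 1 shM5 library other than C18-4 shM5 replicate 1 (-0.34 to -0.24, limma adjusted p = 0.0510 to 0.141). Some of the smaller calls also rested on single libraries. The call of Jam3 in the shNC libraries was lost without replicate 1 or replicate 2 of either control group (0.20 to 0.25, limma adjusted p = 0.0522 to 0.113), and that of Tjp1 without C18-4 control replicate 3 (-0.30, limma adjusted p = 0.0522). That of Cgnl1 in the shM5 libraries was lost without any 1 of the 6 shM5 libraries or without C18-4 control replicate 2 (0.32 to 0.38, limma adjusted p = 0.0577 to 0.119).

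**Figure D2:**
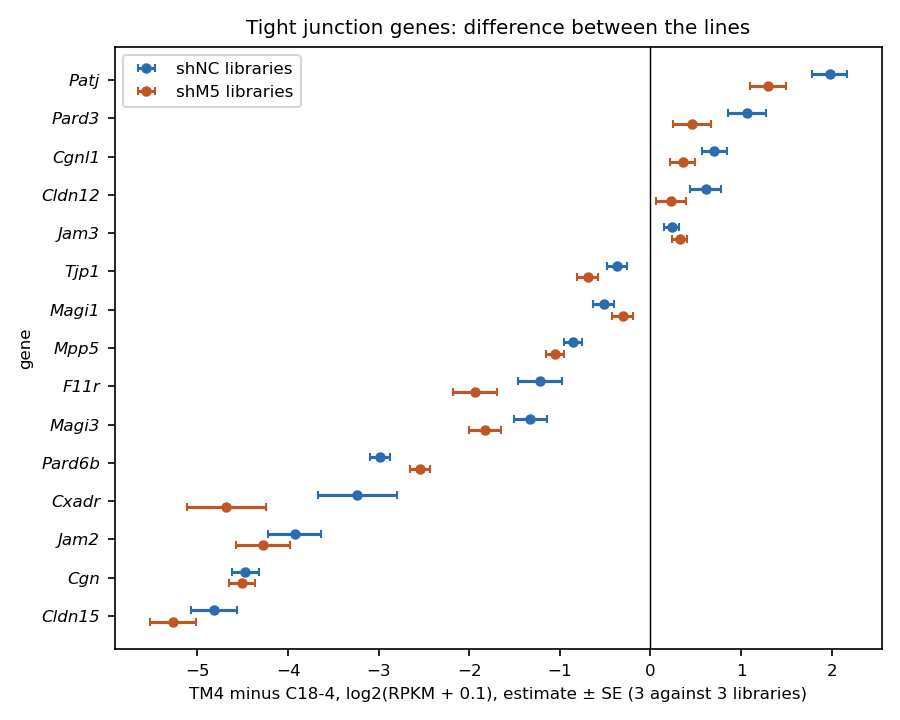
TM4 minus C18-4 on the log2(RPKM + 0.1) scale (horizontal axis) for the 15 fitted genes (vertical axis), with points for the estimates and bars for ± SE, in the shNC and the shM5 libraries. Cldn15, Cgn, Jam2 and Cxadr lie furthest below 0 and Patj lies furthest above 0 in both contrasts.

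In C18-4 cells no tight junction gene passed the test of shM5 against shNC. Of the 16 genes fitted with limma, 0 were called at an adjusted p below 0.05, against 0.586% of the 11611 genes tested, and 0 had an unadjusted p below 0.05. The differences ran from -0.17 (Cgn) to 0.55 (Patj), with 11 of 16 above 0 and a median of 0.06. Without 1 library these moved between 8 of 16 and a median of 0.01 (shM5 replicate 3 left out) and 12 of 16 and a median of 0.18 (shNC replicate 3 left out). Cgn was at 41.9, 42.7 and 59.8 RPKM in shNC and at 40.4, 40.6 and 45.4 RPKM in shM5. Patj was at 0.34, 0.46 and 0.68 RPKM in shNC and at 0.68, 0.71 and 0.86 RPKM in shM5. Cxadr was at 28.9, 30.6 and 46.4 RPKM in shNC and at 40.7, 41.3 and 46.1 RPKM in shM5. In all 3 genes the control library numbered 3 was the highest control, and for Patj and Cxadr it alone met or passed shM5 values.

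Same-numbered C18-4 libraries of the control and shM5 groups deviated alike, most clearly those numbered 3. With the replicate number as a block, 11.9% of all genes were called, 5.21% higher and 6.73% lower, but still 0 of the 16 tight junction genes. At an unadjusted p below 0.05 there were 6 of 16 (37.5%), against 29.7% of all genes. The smallest adjusted p values in limma with the block were those of Cgnl1 (0.29 ± 0.08, adjusted p = 0.0597), Cxadr (0.30 ± 0.09, adjusted p = 0.0724), Mpp5 (0.19 ± 0.06, adjusted p = 0.0823) and Pard3 (-0.17 ± 0.06, adjusted p = 0.0903). Without control replicate 3, Cxadr alone of the 16 was called (0.52, adjusted p = 0.0340 in limma), against 237 of 11579 genes, 146 higher and 91 lower. The summed RPKM of the epithelial markers, 9 of 10 in the table, lay between 265 and 325 in shNC and between 422 and 475 in shM5 libraries, and that of the spermatogonial markers, 12 of 14 in the table, between 80.8 and 124 and between 126 and 145. Krt19 and Uchl1 were their most abundant genes, and their part in these values was not tested.

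Pard6b was the only tight junction gene whose C18-4 groups did not overlap, 1 of the 16 fitted, against 18.9% of all genes fitted (9.3% higher and 9.55% lower in shM5). It was at 18.2, 18.01 and 18.9 RPKM in shNC and at 17.3, 17.2 and 16.9 RPKM in shM5, a difference of -0.10 ± 0.07 that did not pass the test (limma adjusted p = 0.652).

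In TM4 cells the result turned on 1 control library. Over the 13 fitted genes, the root mean square log2 difference between control replicates 1 and 2 was 0.103. Control replicate 3 lay 0.752 and 0.781 from them, but 0.178 to 0.255 from the shM5 libraries. Over all 11016 genes tested it likewise lay 0.64 and 0.642 from the other controls and 0.202 to 0.257 from the shM5 libraries. With all 6 libraries, 0 of 13 genes were called by limma at an adjusted p below 0.05, and 0.0% of all genes were. Pard3 alone had an unadjusted p below 0.05. At the study threshold no gene of the group was called in either line, but 0 of all genes tested were called there too.

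Without control replicate 3, 7 of the 13 genes (53.8%) were called by limma, against 67.4% of 11026 genes tested. All 7 were lower in shM5, against 30.9% of all genes lower and 36.5% higher. The study threshold was passed by 3 of 13, F11r, Cxadr and Pard3, against 8.13% of all genes. The members called at an adjusted p below 0.05 were F11r, Cxadr, Pard3, Magi3, Cldn12, Tjp1 and Cgnl1. Nothing in the labels marks replicate 3, and it was singled out from the values of these same data. Leaving out the control nearest to the shM5 libraries widens these differences and shortens their SE. The calls without it therefore follow in part from that choice and are not read as support. Both sets of values are given.

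Pard3 encodes PAR3, the polarity scaffold that recruits PAR6 to forming junctions. It was at 51.3, 50.3 and 27.4 RPKM in TM4 shNC and at 23.8, 23.9 and 24.3 RPKM in TM4 shM5. All shM5 libraries lay below all controls, by a difference of -0.78 ± 0.24 (limma adjusted p = 0.191) and, without control replicate 3, of -1.08 ± 0.04. Cxadr was at 5.60, 5.94 and 1.34 RPKM in shNC and at 1.48, 1.92 and 1.35 RPKM in shM5. Its groups overlapped through control replicate 3, and its difference was -1.14 ± 0.56 (limma adjusted p = 0.206) and, without that library, -1.82 ± 0.16. F11r differed by -0.65 ± 0.31 (limma adjusted p = 0.202) and, without it, by -1.03 ± 0.06.

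Magi3 was at 12.3, 12.2 and 7.73 RPKM in shNC and at 7.70, 7.68 and 7.59 RPKM in shM5, so that its groups did not overlap but control replicate 3 lay next to the shM5 libraries. Its difference was -0.45 ± 0.19 (limma adjusted p = 0.191) and, without control replicate 3, -0.67 ± 0.06. Cldn12 was at 50.6, 51.8 and 30.5 RPKM in shNC and at 35.3, 36.7 and 30.5 RPKM in shM5, with differences of -0.34 ± 0.22 and -0.59 ± 0.08. Tjp1 differed by -0.22 ± 0.12 and -0.34 ± 0.05. Cgnl1, at 28.0, 27.8 and 20.6 RPKM in shNC and at 23.9, 24.9 and 23.6 RPKM in shM5, moved from -0.06 ± 0.13 to -0.21 ± 0.05. In all 7 genes control replicate 3 was the lowest control.

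Pard6b and Ocln went the other way in TM4 cells. Pard6b was at 2.41, 2.04 and 2.25 RPKM in shNC and at 2.63, 2.65 and 3.35 RPKM in shM5. Its groups did not overlap, and its difference of 0.35 ± 0.15 did not pass the test (limma adjusted p = 0.192). Groups without overlap were found in TM4 cells for 3 of the 13 fitted genes, against 26.8% of all genes fitted. Pard3 and Magi3 were lower in shM5 (11.1% of all genes) and Pard6b was higher (15.7%), and outside the fit Ocln was higher. The 6 fitted genes outside the 7 called without control replicate 3 were Cgn, Jam3, Magi1, Mpp5, Patj and Pard6b, and without that library their differences ran from -0.13 to 0.35.

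Marker levels moved with these libraries. The summed RPKM of the fibroblast or myoid markers, 12 of 12 in the table and led by Vim, lay between 2012 and 2502 in TM4 shNC and between 2603 and 2672 in TM4 shM5 libraries. That of the Sertoli cell markers, 11 of 14 in the table and led by Kitl, lay between 36.1 and 70.1 and between 31.5 and 35.2. Snai2, which encodes the E2-box factor Slug, was at 122, 126 and 48.5 RPKM in TM4 shNC and between 42.2 and 53.6 RPKM in TM4 shM5. Endothelial markers summed to at most 0.44 RPKM and macrophage markers to at most 1.77 RPKM in TM4 cells, with Adgre1 listed at 0. The part of these genes in the values above was not tested. In bulk samples, fewer cells of a type and less RNA per cell cannot be told apart.

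**Figure D3:**
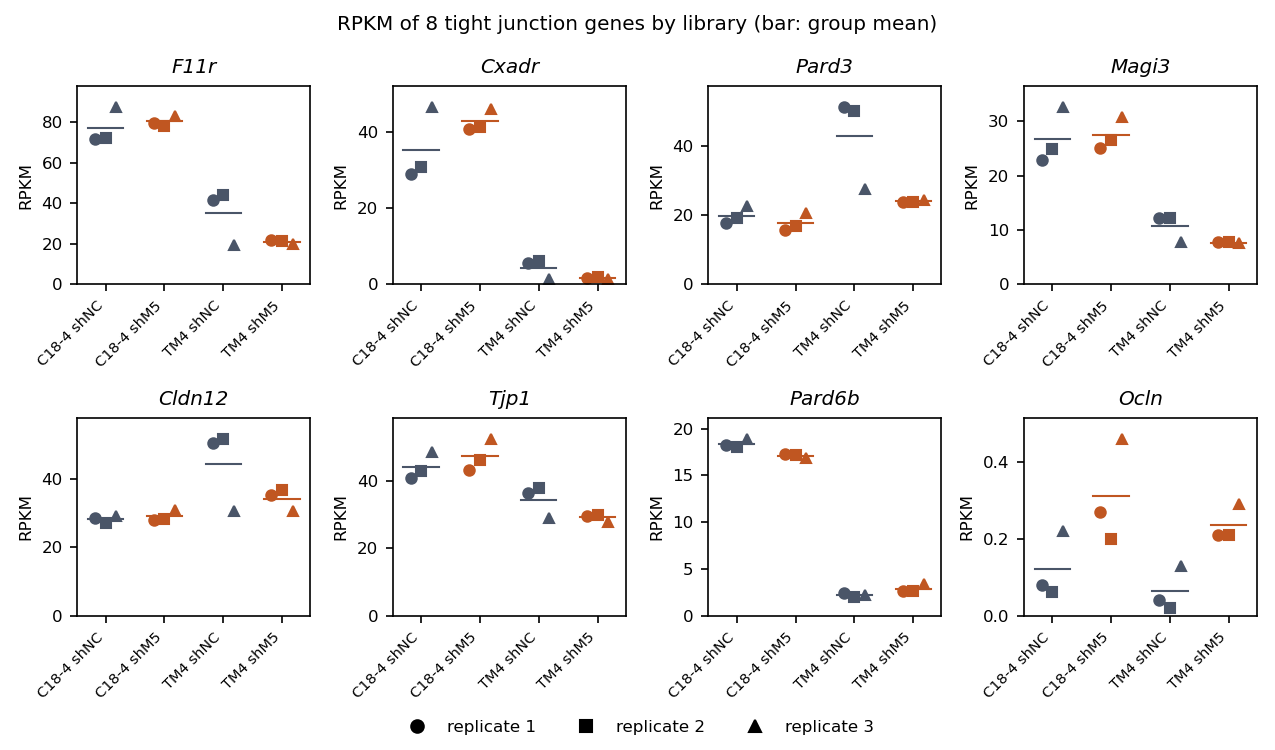
RPKM (vertical axes, from 0) of F11r, Cxadr, Pard3, Magi3, Cldn12, Tjp1, Pard6b and Ocln in the 4 groups (horizontal axes), with a point per library shaped by replicate and a bar at the group mean. In TM4 cells the triangle of control replicate 3 lies with the shM5 points for F11r, Cxadr, Magi3 and Cldn12, while shM5 points of Pard6b and Ocln lie above all controls.

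**Figure D4:**
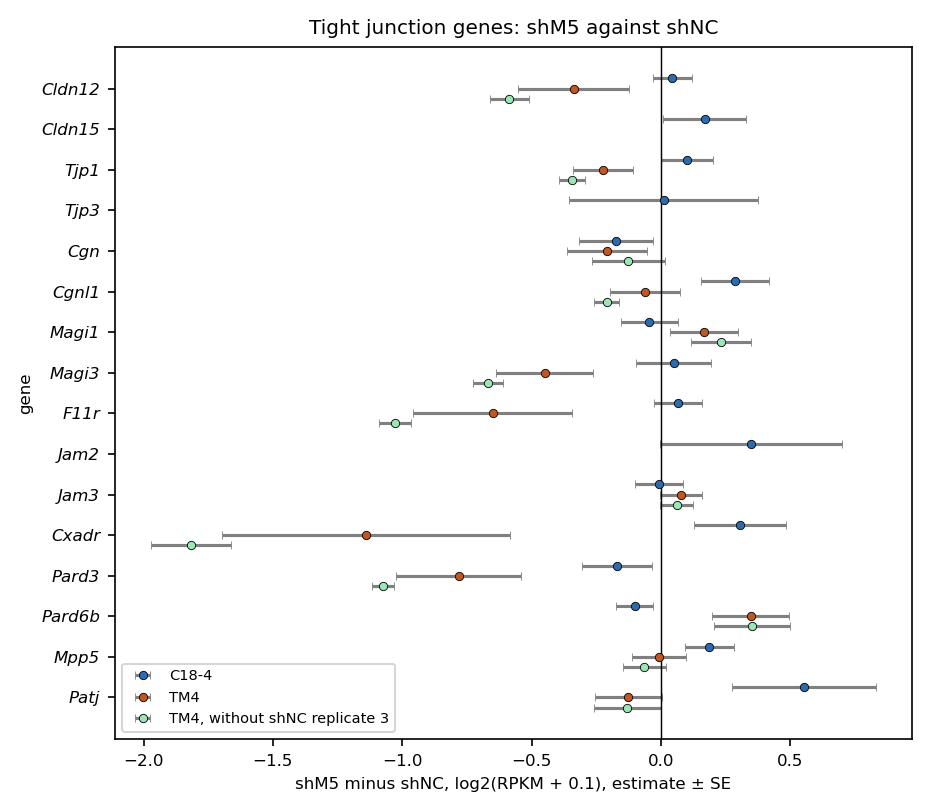
shM5 minus shNC on the log2(RPKM + 0.1) scale (horizontal axis) for the 16 genes fitted in C18-4 cells and the 13 fitted in TM4 cells (vertical axis), with points for the estimates and bars for ± SE. In TM4 cells the estimates of Cxadr, Pard3, F11r and Magi3 lie below 0 and their bars shorten without control replicate 3.

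The difference between the shM5 effects of the lines was tested itself over all 12 libraries. Of the 15 genes fitted, 0 were called by limma at an adjusted p below 0.05, against 0.102% of all genes, and 3 (20.0%) had an unadjusted p below 0.05, against 20.9% of all genes. These were Pard6b (0.45 ± 0.16), Patj (-0.68 ± 0.27) and Cxadr (-1.44 ± 0.62), with adjusted p values in limma of 0.198, 0.221 and 0.229. Without TM4 control replicate 3, 8 of 15 were called, 7 lower and 1 higher in TM4 than in C18-4 cells, against 38.0% of all genes called, 16.4% lower and 21.5% higher. That library was singled out from these same values, so these calls are not read as support.

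Other genes of the pathway, chosen for known roles in tight junctions or polarity, were read beside them. In C18-4 cells 1 of 29 fitted was called by limma, Tjap1, which encodes a tight junction associated protein, lower by -0.49 ± 0.07 in shM5 (adjusted p = 0.0410). That call was lost without the filter, without the variance trend and without any 1 C18-4 library other than shNC replicate 3 (-0.52 to -0.46, limma adjusted p = 0.0577 to 0.266). With the replicate block 9 of 29 (31.0%) were called, 6 higher and 3 lower, against 11.9% of all genes. In TM4 cells 0 of 27 were called and 7 (25.9%) had an unadjusted p below 0.05, against 26.0% of all genes. Without control replicate 3, 18 of 27 (66.7%) were called, 10 higher and 8 lower, against 67.4% of all genes, with Arhgef2 and Clmp among them. Between the lines 19 of 30 (63.3%) were called in the shNC libraries and 17 of 30 (56.7%) in the shM5 libraries, against 65.6% and 61.1% of all genes. Crb2, an apical polarity protein, and Lin7c, a partner of PALS1, were lower in TM4 cells, by -6.59 ± 0.13 and -1.26 ± 0.07 in the shNC libraries, and the adhesion gene Clmp was higher by 4.81 ± 0.31.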

How the data were processed

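RNA-seq was performed on 12 libraries, 3 of each of C18-4 shNC, C18-4 shM5, TM4 shNC and TM4 shM5. The authors captured poly(A) mRNA, mapped the reads with SOAPaligner and deposited RPKM values without read numbers. The strand setting, genome build and annotation were not given in the sources used here, so reads of overlapping genes could not be told apart. The worth of 1 read, estimated from low values of 57 to 175 genes per library, varied between 0.971 and 1.015 across libraries. Only values near the lowest one of each gene entered, which holds this estimate near 1. It therefore cannot show whether the depths were close. Groups came from the labels.

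log2(RPKM + 0.1) was fitted with limma 3.58.1 (R 4.3.3) with a mean-variance trend, over genes that averaged 0.5 RPKM or more. The Benjamini-Hochberg adjustment of p covered all genes fitted. Each line was fitted alone for shM5 against shNC, and the 12 libraries together for the lines and for the difference of effects. The study used DEGseq on reads, which were not used here. Tables were handled in Python 3.11.15 with pandas 2.3.3 and numpy 2.4.6.

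The members, gene lists and tests were chosen with earlier results of these data known. Values in every library were given for members called within a line or in the difference of effects (none were), for the 4 stained proteins, and for up to 8 members per direction called in both contrasts of the lines. Of the pathway list, up to 3 genes per contrast with the smallest adjusted p were named. One gene so chosen is not reported here. Pard3, Cldn12, Magi1 and Snai2, and further values of named members, were chosen after their values were seen.

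The deviations of same-numbered C18-4 libraries from their groups correlated across genes at 0.439, 0.409 and 0.631, so their numbers were taken as pairs from the data, not from the labels. Control replicate 1 with shM5 replicate 2 and control replicate 2 with shM5 replicate 1 also correlated, at 0.341 and 0.345, so that only number 3 stood clearly apart. In TM4 cells these were 0.073, 0.049 and 0.127, which is no pairing.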

Additional observations from a re-analysis of the deposited data

Results flagged for a closer look

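Pard6b was singled out because its shM5 and shNC libraries did not overlap in either line and went in opposite directions, 17.3, 17.2 and 16.9 against 18.2, 18.01 and 18.9 RPKM in C18-4 cells and 2.63, 2.65 and 3.35 against 2.41, 2.04 and 2.25 RPKM in TM4 cells. Groups did not overlap in 18.9% of all genes fitted in C18-4 cells and in 26.8% of those fitted in TM4 cells. The difference between the effects was 0.45 ± 0.16 (SE) on the log2 scale, with an adjusted p of 0.198 in limma over 12 libraries, so it did not pass the test. It was called without TM4 control replicate 3 (0.45, limma adjusted p = 0.0404), a library singled out from the values of these data.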

How the results depend on the processing

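The counts of tight junction genes called between shM5 and shNC depended on which libraries entered. Leaving out 1 library at a time gave 0 to 1 of 16 in C18-4 cells, 0 to 7 of 13 in TM4 cells (0 to 3 at the study threshold) and 0 to 8 of 15 for the difference between the effects. The single call in C18-4 cells came without C18-4 shNC replicate 3, where 237 of 11579 genes were called. The 7, 3 and 8 came without TM4 shNC replicate 3, against 67.4%, 8.13% and 38.0% of all genes. Without replicate 3 of every group the counts were 6, 8 (2 at the study threshold) and 12, against 26.2%, 72.7% (9.26%) and 59.9% of all genes. All 6 in C18-4 cells were higher in shM5 (Cgnl1, Cldn15, Cxadr, F11r, Jam2 and Mpp5). There 1482 of 11549 genes were called higher and 1547 lower. In TM4 cells 1 was higher and 7 lower, against 4403 higher and 3613 lower of 11030 genes. The difference between the effects had 2 higher and 10 lower, against 3898 and 3124 of 11724 genes. With the replicate block, with other pseudocounts, filters, scaling or variance model, the counts within each line and for the difference between the effects stayed at 0. Between the lines 11 to 15 of 15 in the shM5 and 14 to 15 of 15 in the shNC libraries were called when libraries were left out. Over all genes these fits called 6428 of 11794 to 9327 of 11724 in the shM5 libraries. In the shNC libraries they called 6937 of 11784 to 9880 of 11724. Without the filter 17 and 20 of 31 (54.8% and 64.5%) were called, against 49.5% and 53.2% of all genes. With the replicate block 12 and 15 of 15 were called, against 65.6% and 70.1% of all genes. Without the block they were 13 and 15. The block changed the call of Magi1 in the shM5 libraries (limma adjusted p = 0.0684).

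The direction turned, when 1 library was left out, in differences that passed no test with all libraries, for Jam3, Magi3, Cldn12, Magi1 and Tjp3 in C18-4 cells (-0.061 to 0.043, -0.054 to 0.198, -0.0017 to 0.071, -0.080 to 0.00076 and -0.173 to 0.376), for Cgn in the difference between the effects (-0.201 to 0.055) and for Cgnl1 and Mpp5 in TM4 cells (-0.209 to 0.013, and -0.065 to 0.052). With 1 RPKM added before the logarithm it turned for Tjp3 in C18-4 cells (-0.012) and for Cgn in the difference between the effects (0.027). It also turned for Magi1 between the lines in the shM5 libraries under quantile normalisation (0.033). The cause was not tested. Read numbers were not given, and no limit of detection was set for genes listed at 0.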
